A study of Mus musculus with 16 samples.

Results

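The glucocorticoid receptor, the enzymes that activate and inactivate its hormone, and genes it is known to induce were followed in the developing mouse epididymis, the coiled duct that carries sperm away from the testis. Members were chosen by symbol: every probe set annotated to 1 of 10 genes was taken, namely the receptors Nr3c1 and Nr3c2, the enzymes Hsd11b1 and Hsd11b2, and the response genes Fkbp5, Tsc22d3, Zbtb16, Mt1, Mt2 and Angptl4. That gave 24 of the 45037 probe sets on the array that are not controls. Whole epididymides of wild-type CD-1 males, an outbred stock, were collected on gestational days 12, 14, 16 and 18 (gd12, gd14, gd16 and gd18; Theiler stages 20, 22, 24 and 26) and on postnatal day 2 (pnd2; Theiler stage 27), with 3 arrays per stage. The labels name no treatment and no altered allele. Per the sample labels, each gd12 and gd14 sample was a pool of size 3 and no pool size is given for the later epididymis samples, whereas the series' design text describes every sample as the pair of organs of 1 animal, from a different dam each time. One further array held a pool of 8 whole newborns (4 male, 4 female) at postnatal day 0.5; it is a single sample of other tissue, is given as a reference level only and entered no test.

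Corticosterone, the main glucocorticoid of the mouse, enters cells and binds Nr3c1, which then moves from a chaperone complex in the cytoplasm to the nucleus and changes transcription. Within a cell, Hsd11b1 regenerates the active steroid from its inactive 11-keto form and Hsd11b2 does the reverse, so the pair sets how much hormone reaches the receptor. Glucocorticoids rise in the fetus before birth, when they take part in the maturation of lung, liver and gut, and in the adult epididymis they are known to act on the duct epithelium.

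Each value is the deposited signal of a probe set, a linear intensity for which the mean of each array, after removing 2% of probe sets at either end, is 500. Tests were run on probe sets that reached the median of the array, 81.24 to 132.97 in the epididymis, on 3 or more of the 15 epididymis arrays. Of the 24 member probe sets 13 met this, covering 8 of the 10 genes, among 25981 probe sets in all. Log2 changes are differences of stage means of log2(signal + 16) with the standard error (SE) of a limma model over all 15 arrays, and a probe set is called changed at a Benjamini-Hochberg adjusted p under 0.05 over all of the tested probe sets. Levels of different genes are not compared, because brightness also depends on the probes. The labels give no batch.

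One array stood apart. The Gapdh control probes gave a 3′ to 5′ ratio of 63.16 for pnd2 replicate 3, a sign of degraded RNA, where the remaining epididymis arrays ranged from 4.333 to 7.18; for Actb the ratio was 80.73 where the others ranged from 2.404 to 4.141. Its median signal was also the lowest, at 81.24. It is called the degraded array below on the 3′ to 5′ ratios alone, as no other measure of RNA quality was used. The called changes of members and the counts of the gene lists are therefore given with all 15 arrays and again without this array. Testis interstitial markers were high on gd16 replicate 9 and gd14 replicate 10 (summed signal 3869 and 2044, against 105.6 to 712.8 on the other epididymis arrays), and skeletal muscle markers on pnd2 replicate 2 (5454 against 90.89 to 582.9). Epithelial markers of the duct were present throughout, with at least 5 of the 7 on the array at or above the array's median on every epididymis array.

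Between gd12 and gd14 the receptor Nr3c1 rose and the inactivating enzyme Hsd11b2 fell. Germ cell markers, and testis supporting cell markers other than Amh, were highest at gd12 among the epididymis stages and fell over the same interval. The cell content of the samples thus differed as well, and its part in these changes was not tested. Between gd18 and pnd2, the interval that holds birth, the metallothionein Mt2 rose 3.63-fold and Angptl4, a secreted inhibitor of lipoprotein lipase, rose 2.88-fold. No member probe set passed the test between gd14 and gd16 or between gd16 and gd18. Other receptor-induced members had different values across birth: every pnd2 array lay within or below the gd18 range for each tested probe set of Fkbp5, Tsc22d3 and Zbtb16, none of which passed the test there. The log2 changes of Fkbp5 1416125_at and Tsc22d3 1420772_a_at were -0.37 and -0.67 with all arrays. Without pnd2 replicate 3 they were -0.11 and -0.01. Among the further response genes listed below, Anxa1 was called higher across birth.

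**Figure D1:**
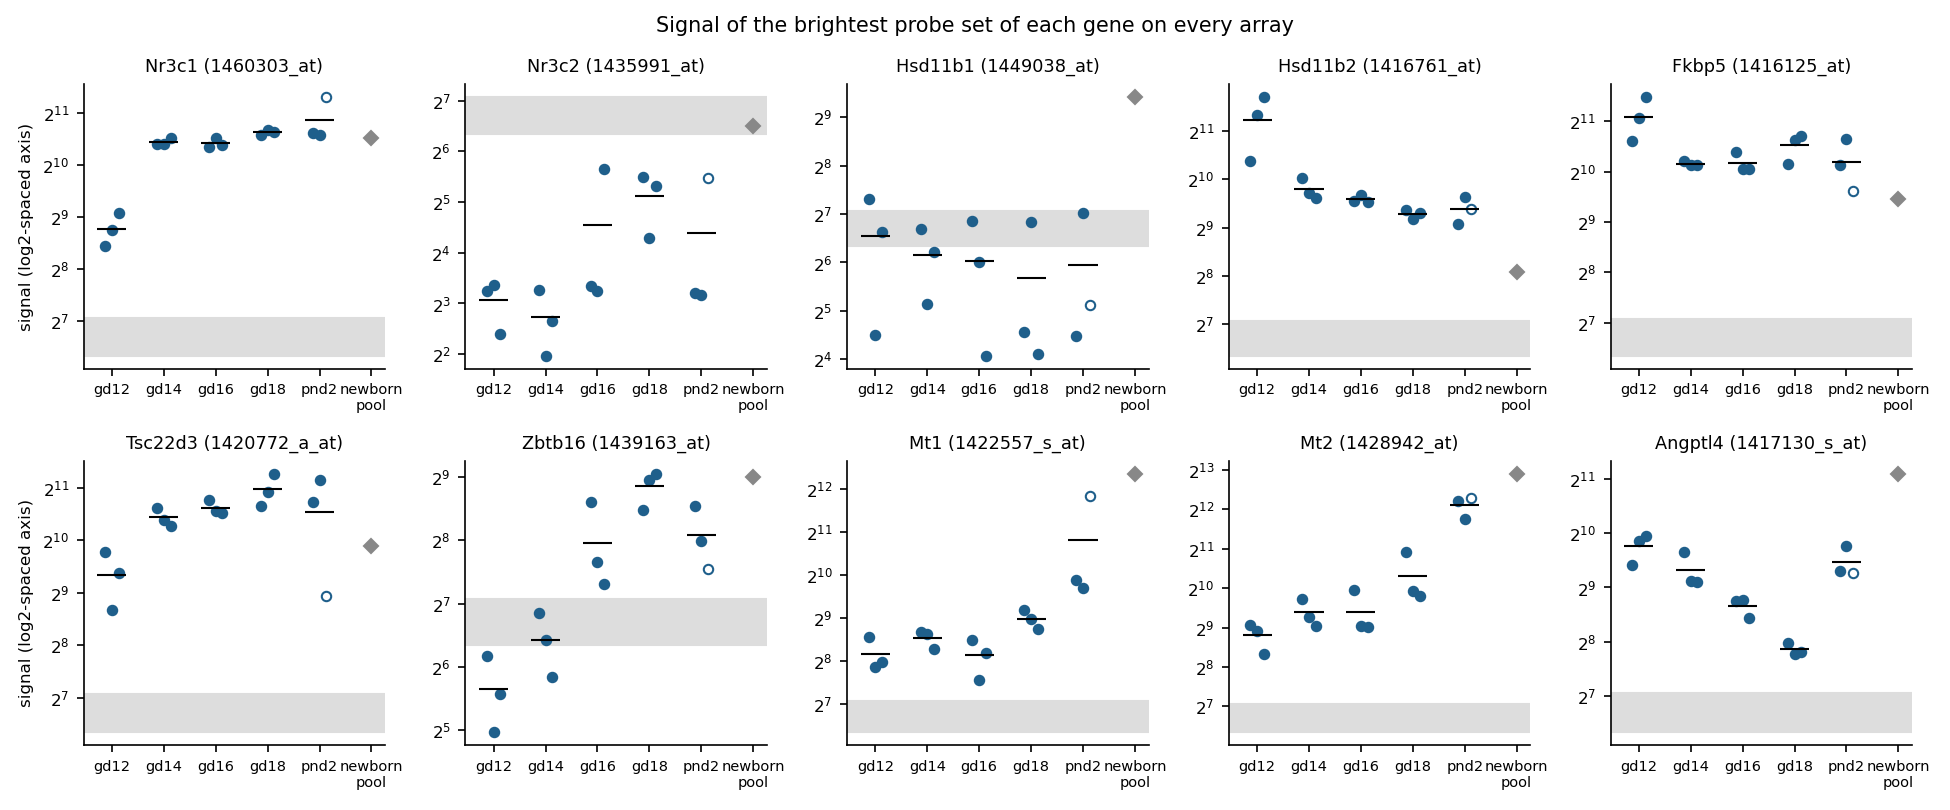
Signal of the brightest probe set of each of the 10 genes on every array (log axis, arbitrary intensity units) against stage, with a bar at each stage mean, the degraded pnd2 replicate 3 as an open circle and the pool of whole newborns as a diamond; the grey band spans the medians of all 16 arrays, 81.24 to 133.99. Nr3c1 steps up and Hsd11b2 steps down after gd12, Mt2 is highest at pnd2, Angptl4 has its lowest values at gd18, and Nr3c2 and Hsd11b1 lie near or below the band on the epididymis arrays.

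Nr3c1 was represented by 6 probe sets, 3 of which were bright enough to test. With probe set 1460303_at the signals were 347, 429 and 540 at gd12, 1342, 1350 and 1469 at gd14, 1299, 1459 and 1341 at gd16, 1531, 1625 and 1593 at gd18, and 1565, 1531 and 2507 at pnd2. Every later array lay above all 3 gd12 arrays, and the highest of the 15 was the degraded array. The log2 change from gd12 to gd14 was 1.65 ± 0.21 (SE, n = 3 and 3), or 3.13-fold, with a limma adjusted p of 0.0001981 (1.038e-06 without pnd2 replicate 3).

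The other bright Nr3c1 probe sets gave the same step in different sizes. Probe set 1421867_at read 507, 402 and 499 at gd12 and 1118, 1152 and 870 at gd14, a log2 change of 1.13 ± 0.19 (adjusted p = 0.001704 by limma, 0.0001279 without pnd2 replicate 3). Probe set 1457635_s_at, whose suffix marks probes that can match more than 1 transcript, read 128, 150 and 132 at gd12 and 527, 605 and 663 at gd14, a log2 change of 2.01 ± 0.31 (limma adjusted p = 0.0009308, and 4.053e-07 without that array). Neither stage overlapped the other in either case. All 3 calls remained under all of the alternatives in which the probe set was tested, 26 for 1460303_at and 25 for each of the others.

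After gd14 no further step of the receptor transcript passed the test, with or without pnd2 replicate 3. From gd14 to gd16 the log2 change of 1460303_at was -0.02, with a 95% interval from -0.46 to 0.42, and from gd16 to gd18 it was 0.21 (-0.23 to 0.65). From gd18 to pnd2 it was 0.20 (-0.24 to 0.64) with all arrays and -0.03 without pnd2 replicate 3. In the order of stage means, gd18 and pnd2 were not apart beyond their spread, nor were gd14 and gd16, whereas gd18 lay 0.19 log2 units above gd14, beyond the spread, and gd12 lay 1.62 below the next stage. On the degraded array 1457635_s_at read 1263, against 491 and 406 on the other pnd2 arrays, and its log2 change across birth was 0.27 with all arrays and -0.22 without that one. The remaining 3 Nr3c1 probe sets, 1421866_at, 1431378_at and 1453860_s_at, read between 1.56 and 77.5 and reached the array median on 0 of 15 arrays.

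**Figure D2:**
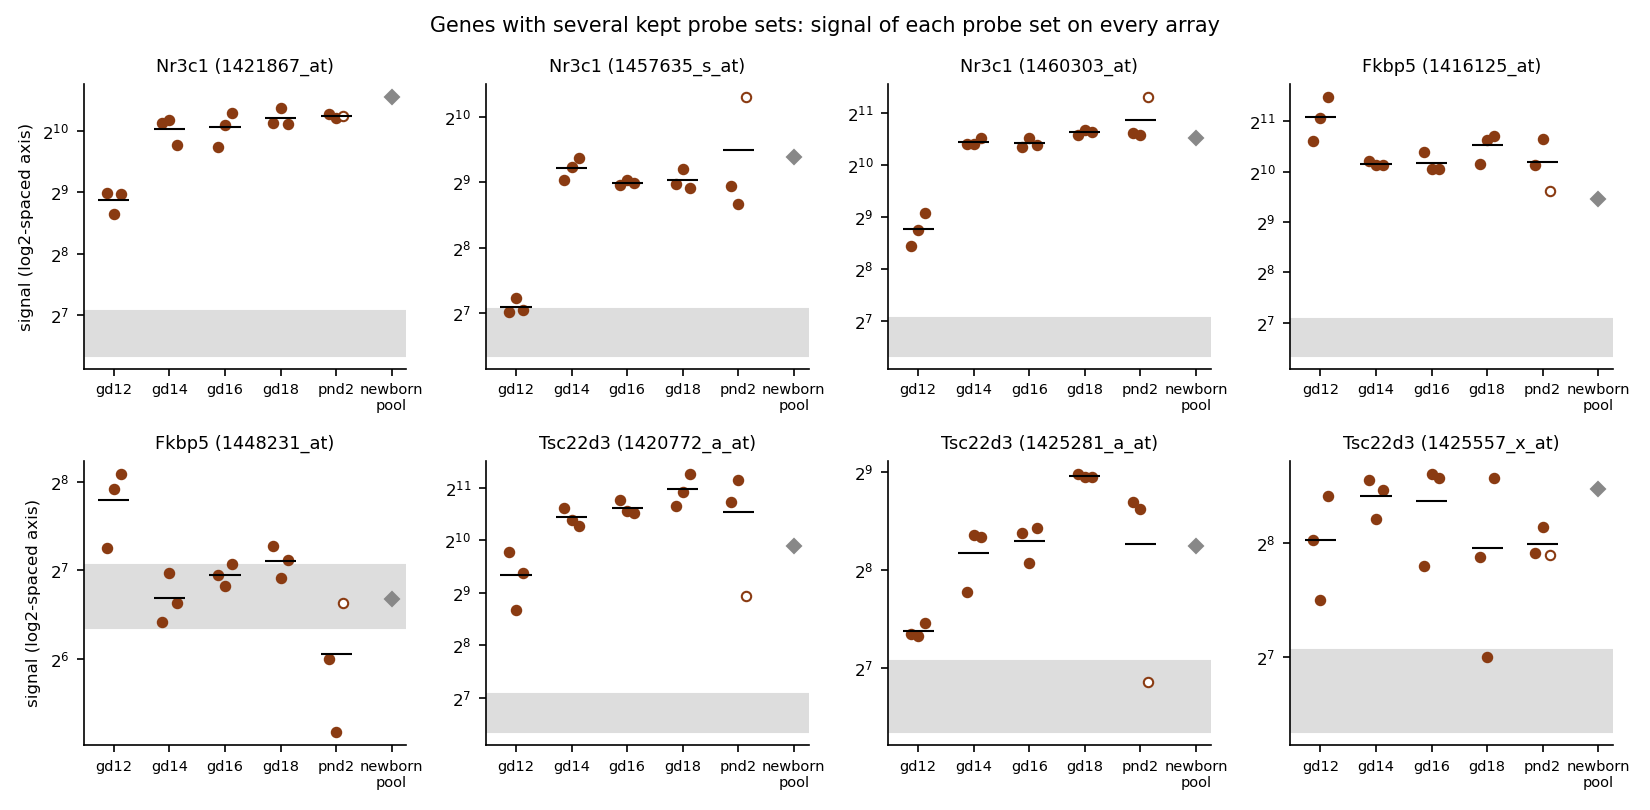
Signal on every array (log axis, arbitrary intensity units) against stage for the 8 tested probe sets of Nr3c1, Fkbp5 and Tsc22d3, the genes with more than 1 tested, with bars at stage means, an open circle for pnd2 replicate 3, a diamond for the newborn pool and a grey band over the array medians. The 3 Nr3c1 probe sets share the step after gd12, those of Fkbp5 have their highest arrays at gd12, and Tsc22d3 1425557_x_at shows no order over the stages.

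The second corticosteroid receptor, Nr3c2, which binds aldosterone and also corticosterone, stayed below the middle of every array. Its single probe set, 1435991_at, read 3.92 to 50.6 on the epididymis arrays, below the median of each, and 90.5 in the newborn pool. Of 8 genes listed for the mineralocorticoid response and sodium transport, 7 were on the array and 5 were bright enough to test. By limma 0 of those 5 were called in any of the 4 consecutive intervals with all 15 arrays, and 1 had an unadjusted p under 0.05 in each. Without pnd2 replicate 3, 1 of the 5 was called higher at gd14 than gd12 and 1 lower at gd16 than gd14, Sgk1 in both cases (0.52 and -0.74; limma adjusted p = 0.02866 and 0.0475). Here and for the other lists, genes called only without that array were named after their values were seen. Sgk1, a kinase that both receptors induce and that keeps sodium channels at the cell surface, read 1245, 1103 and 741 at gd18 and 1528, 1603 and 1877 at pnd2, a log2 change of 0.72 ± 0.19 that missed the threshold (limma adjusted p = 0.09902; 0.63 and 0.08901 without pnd2 replicate 3).

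Hsd11b2 moved opposite to the receptor at the first interval. Signals of 1416761_at were 1339, 2578 and 3332 at gd12, 1040, 848 and 781 at gd14, 749, 817 and 742 at gd16, 661, 579 and 635 at gd18, and 537, 797 and 669 at pnd2. The gd12 arrays were the 3 highest of the 15, and they differed among themselves more than the arrays of any later stage. The log2 change to gd14 was -1.34 ± 0.27, or 2.53-fold lower (adjusted p = 0.006134 by limma, 0.0009663 without pnd2 replicate 3), and this call held in all 26 alternatives. No later interval was called with or without that array, and the gd18 and pnd2 levels were not apart beyond their spread (log2 change 0.08, 95% interval -0.51 to 0.66). The pnd2 level was also called lower than that of gd12, at -1.75 ± 0.27 (limma adjusted p = 0.0003719) and -1.76 without pnd2 replicate 3 (limma adjusted p = 0.0001798).

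Hsd11b1, the activating enzyme, stayed near or below the middle of the array. Probe set 1449038_at read 16.9 to 158 in the epididymis and reached the array median on 2 of 15 arrays, pnd2 replicate 2 (129) and gd12 replicate 13 (158), while the newborn pool read 680. H6pd, the enzyme that supplies Hsd11b1 with its reducing cofactor, read 207, 355 and 304 at gd12 and 612, 461 and 526 at gd14, a rise of 0.87 ± 0.24 on the log2 scale (limma adjusted p = 0.0359, and 0.005988 without pnd2 replicate 3). The H6pd call held in 9 of the 15 fits that left out 1 array each (adjusted p up to 0.1436), and it was the only call among the 3 tested genes of the steroid supply list in a consecutive interval with all 15 arrays. Hsd17b11 was called as well without pnd2 replicate 3, lower at gd14 than gd12 by a log2 change of -0.54 (limma adjusted p = 0.01057).

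Fkbp5, a co-chaperone that lowers the affinity of the receptor for hormone and is itself induced by it, had its highest stage mean at gd12. Probe set 1416125_at read 1559, 2141 and 2845 at gd12, 1177, 1125 and 1118 at gd14, 1334, 1062 and 1057 at gd16, 1141, 1586 and 1680 at gd18, and 1126, 1603 and 779 at pnd2. All gd14 arrays lay below all gd12 arrays, and the lowest of the 15 was the degraded array. The change from gd12 to gd14 was -0.88 ± 0.27 with 15 arrays, just outside the threshold (limma adjusted p = 0.05321).

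Without pnd2 replicate 3 that Fkbp5 change was called, because the pooled spread was smaller while the means of both stages stayed the same (-0.88 ± 0.20, limma adjusted p = 0.004827). The dimmer probe set 1448231_at gave the same order at the first interval, 153, 243 and 273 at gd12 against 85.1, 125 and 99.3 at gd14, where each array was below its median (limma adjusted p = 0.06907 with 15 arrays and 0.01955 without that array). Around birth this dimmer probe set read 155, 121 and 139 at gd18 and 64, 36.0 and 99.0 at pnd2, with no overlap and a log2 change of -0.97 ± 0.31 that was not called (limma adjusted p = 0.143; 0.05677 without pnd2 replicate 3). The brighter one showed no such separation, with a log2 change of -0.37 (95% interval -0.93 to 0.20; -0.11 without pnd2 replicate 3). Neither change was called, the 95% interval of the dimmer ran from -1.64 to -0.30, and the difference between the 2 probe sets was not tested. At pnd2 the 2 tested probe sets were called lower than at gd12. For 1416125_at the log2 change was -0.91 ± 0.27 (limma adjusted p = 0.02544) and -0.65 without pnd2 replicate 3 (limma adjusted p = 0.04232). Its arrays overlapped between these stages, and the call held in 22 of 26 alternatives. For 1448231_at the change was -1.57 ± 0.31 (limma adjusted p = 0.002541) and -1.85 without that array (limma adjusted p = 0.0003955). A further Fkbp5 probe set, 1447736_at, read 0.83 to 43.8 and reached the array median on 0 of 15 arrays.

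Tsc22d3, which encodes GILZ, a receptor-induced protein that restrains inflammatory transcription factors, had its lowest stage mean at gd12. Probe set 1420772_a_at read 875, 408 and 668 at gd12, 1570, 1340 and 1243 at gd14, 1739, 1512 and 1466 at gd16, 1619, 1942 and 2457 at gd18, and 1701, 2265 and 487 at pnd2. The pnd2 stage was split: 2 arrays lay within the gd18 range and the degraded array lay below every array from gd14 on. From gd12 to gd14 the log2 change was 1.13 ± 0.43 with 15 arrays (limma adjusted p = 0.1266) and 1.13 ± 0.22 without pnd2 replicate 3 (limma adjusted p = 0.001597).

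Probe set 1425281_a_at of Tsc22d3 read 162, 161 and 176 at gd12, 219, 327 and 322 at gd14, 331, 269 and 345 at gd16, 505, 493 and 494 at gd18, and 415, 395 and 116 at pnd2. Its gd18 values were the highest of the 15 and close to one another. The change from gd18 to pnd2 was -0.85 ± 0.35 with 15 arrays and -0.29 ± 0.20 without pnd2 replicate 3, and it was called in neither (limma adjusted p = 0.21 and 0.5061). A further testable probe set, 1425557_x_at, whose suffix marks probes that may cross-hybridise, showed no order over the stages (128 to 389 on the 15 arrays). The untested 1444365_at read 22.7 to 109 and reached the array median on 1 of 15 arrays, the degraded one (91.0, where gd18 read 48.6 to 83.6).

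Zbtb16, a zinc finger repressor known as PLZF that glucocorticoids induce strongly in stromal cells, was below the array medians at first and higher later. Signals of 1439163_at were 72.2, 31.2 and 47.4 at gd12, 115, 86.3 and 57.1 at gd14, 389, 201 and 159 at gd16, 358, 499 and 531 at gd18, and 375, 255 and 186 at pnd2. All gd12 and gd14 arrays lay below all later ones. Every gd12 and gd14 array was below its median, so the probe set was tested only because of the later stages where it is high, and a fold against gd12 has only a bound. With each gd12 array set at its median, the pnd2 level was at least 2.07-fold higher than at gd12 (at least 2.43-fold without pnd2 replicate 3). The fit called this difference (limma adjusted p = 0.0009103, and 0.0002265 without that array), as did all 26 alternatives. The 2 untested Zbtb16 probe sets reached the array median on 1 of 15 arrays each. Of these 1419874_x_at read 2.01 to 99.3 on all arrays but the degraded one, where it read 216, and 1427638_at read 6.52 to 119.

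No single interval of Zbtb16 passed the test with 15 arrays. The largest step was from gd14 to gd16, at least 1.77-fold with the gd14 arrays set at their medians (adjusted p = 0.3695 by limma, 0.09078 without pnd2 replicate 3); array quality weights called it (limma adjusted p = 0.03268) and the other alternatives did not (lowest 0.09078). That step also runs from samples labelled as pools to samples with no pool size given, and pooling and stage cannot be told apart there. From gd18 to pnd2 the change was -0.77 ± 0.37 (limma adjusted p = 0.2508; -0.54 and 0.5108 without pnd2 replicate 3).

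The metallothioneins are small cysteine-rich proteins that bind zinc and copper, and their genes are induced both by metals, through the factor Mtf1, and by glucocorticoids. Mt2 and Mt1 lie next to each other on chromosome 8, with 0 genes listed between them. Their promoters are shown because both signals were higher on every pnd2 array than on any gd18 array and both promoters carry motifs for the metal response; each line gives 250 bases before and 50 after the RefSeq start on the plus strand of GRCm38.p6, 5′ to 3′, at chr8:94178839-94179138 for Mt1 and chr8:94172368-94172667 for Mt2. Capitals mark the metal response element core, TGCACNC or TGCGCNC on either strand, and the glucocorticoid response element, which is GNACA, any 3 bases, then TGTNC.
Mt1: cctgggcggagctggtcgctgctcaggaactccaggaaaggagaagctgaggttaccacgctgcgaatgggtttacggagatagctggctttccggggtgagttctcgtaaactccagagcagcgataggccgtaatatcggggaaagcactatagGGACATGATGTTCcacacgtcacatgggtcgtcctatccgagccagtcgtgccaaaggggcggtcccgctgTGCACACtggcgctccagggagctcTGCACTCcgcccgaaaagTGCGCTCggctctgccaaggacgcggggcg
Mt2: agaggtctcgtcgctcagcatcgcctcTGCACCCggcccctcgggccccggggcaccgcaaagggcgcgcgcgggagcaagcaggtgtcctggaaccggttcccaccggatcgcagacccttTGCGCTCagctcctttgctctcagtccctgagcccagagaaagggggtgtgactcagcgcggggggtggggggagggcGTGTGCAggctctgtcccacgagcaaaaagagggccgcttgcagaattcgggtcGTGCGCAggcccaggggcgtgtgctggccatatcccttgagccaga
Mt1 held 3 metal response cores and 1 glucocorticoid response element, whose first base is at position -94 from the start, and Mt2 held 4 cores and 0 such elements. Of 32851 RefSeq promoters of this length, 25.7% held at least 1 core, 1.97% held 3 or more, and 0.475% held the glucocorticoid response element. Promoters were searched for 6 of the 10 members. Nr3c1 was not among them, since windows on its chromosome were left out of the search. Of the searched members other than Mt1 and Mt2, Nr3c2 and Hsd11b1 held 1 core each, while Fkbp5 and the 3 starts of Tsc22d3 held neither motif. The matches describe these letters in these windows and say nothing of binding.

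Mt2 rose across birth. Signals of 1428942_at were 539, 478 and 323 at gd12, 853, 621 and 530 at gd14, 989, 525 and 519 at gd16, 1932, 982 and 884 at gd18, and 4785, 3447 and 5038 at pnd2. The 3 pnd2 arrays were the highest of the 15, and gd18 replicate 4 was the next. The log2 change from gd18 to pnd2 was 1.86 ± 0.33, or 3.63-fold (limma adjusted p = 0.02955), and 1.76 ± 0.34 without pnd2 replicate 3 (limma adjusted p = 0.01705).

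The Mt2 call around birth depended on the arrays of other stages and of gd18. It was lost on leaving out gd18 replicate 4, 5 or 6 (limma adjusted p = 0.06407, 0.1355 and 0.1415) or gd14 replicate 11 (0.05214), and in a fit to the 6 arrays compared (0.546), where 0 probe sets were called in all although 2134 had an unadjusted p under 0.05. The log2 change stayed between 1.65 and 2.21 in these fits. Against gd12, where all pnd2 arrays were also higher, the change was 3.27 ± 0.33, or 9.68-fold (adjusted p = 8.32e-06 by limma, 4.355e-06 without pnd2 replicate 3), and was called in all 26 alternatives. The newborn pool read 7657.

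Mt1 had the same direction with a wider spread. Signals of 1422557_s_at were 377, 231 and 251 at gd12, 409, 393 and 311 at gd14, 361, 189 and 289 at gd16, 585, 507 and 429 at gd18, and 950, 833 and 3640 at pnd2, with 5232 in the newborn pool. The pnd2 arrays lay above all others and the degraded array lay far above the other pnd2 arrays. From gd18 to pnd2 the log2 change was 1.47 ± 0.43 (limma adjusted p = 0.1188), and 0.80 ± 0.26 without pnd2 replicate 3 (limma adjusted p = 0.1255), so 1 array carried much of the size. The call was reached only on leaving out pnd2 replicate 2 (limma adjusted p = 0.04445).

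Against gd12 Mt1 was called, at 2.29 ± 0.43 (limma adjusted p = 0.001746) and 1.61 ± 0.26 without pnd2 replicate 3 (limma adjusted p = 0.0002127). From gd16 to gd18 its arrays did not overlap either (log2 change 0.86 ± 0.43, limma adjusted p = 0.8398; 0.09863 without pnd2 replicate 3). The suffix of this probe set marks probes that can match related transcripts, so other metallothioneins may contribute. The second Mt1 probe set, 1451612_at, read 3.94 to 79.6 and reached the array median on 0 arrays.

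Angptl4, induced by glucocorticoids, by fatty acids through PPAR receptors and by low oxygen, had a lower stage mean at each gestational stage than at the one before, and rose across birth. Signals of 1417130_s_at were 684, 929 and 987 at gd12, 804, 557 and 551 at gd14, 430, 434 and 349 at gd16, 253, 219 and 226 at gd18, and 629, 872 and 619 at pnd2. No gd16 array overlapped gd14 and no gd18 array overlapped gd16, though neither step was called (log2 change -0.62 and -0.75; limma adjusted p = 0.6882 and 0.3682, or 0.1811 and 0.07749 without pnd2 replicate 3). From gd18 to pnd2 the log2 change was 1.52 ± 0.22, or 2.88-fold (adjusted p = 0.0188 by limma), and 1.61 ± 0.22 without pnd2 replicate 3 (0.003705).

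The Angptl4 call around birth was lost on leaving out gd18 replicate 4, 5 or 6 (limma adjusted p = 0.07383, 0.06707 and 0.1126) and in the fit to the 6 arrays compared (0.4965). The log2 change stayed between 1.48 and 1.58 in those fits. The pnd2 mean lay 0.29 log2 units below that of gd12, just beyond the larger SD of those stages (0.28), and this difference was not called (95% interval -0.76 to 0.18; limma adjusted p = 0.3623, and 0.5275 without pnd2 replicate 3). A dimmer probe set, 1453410_at, never reached the array median, with 33.4, 25.1 and 51.7 at gd12, 6.30, 3.27 and 6.28 at gd18, and 68.0, 47.9 and 73.3 at pnd2. With all of its values below the array medians, no change is given for it.

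**Figure D3:**
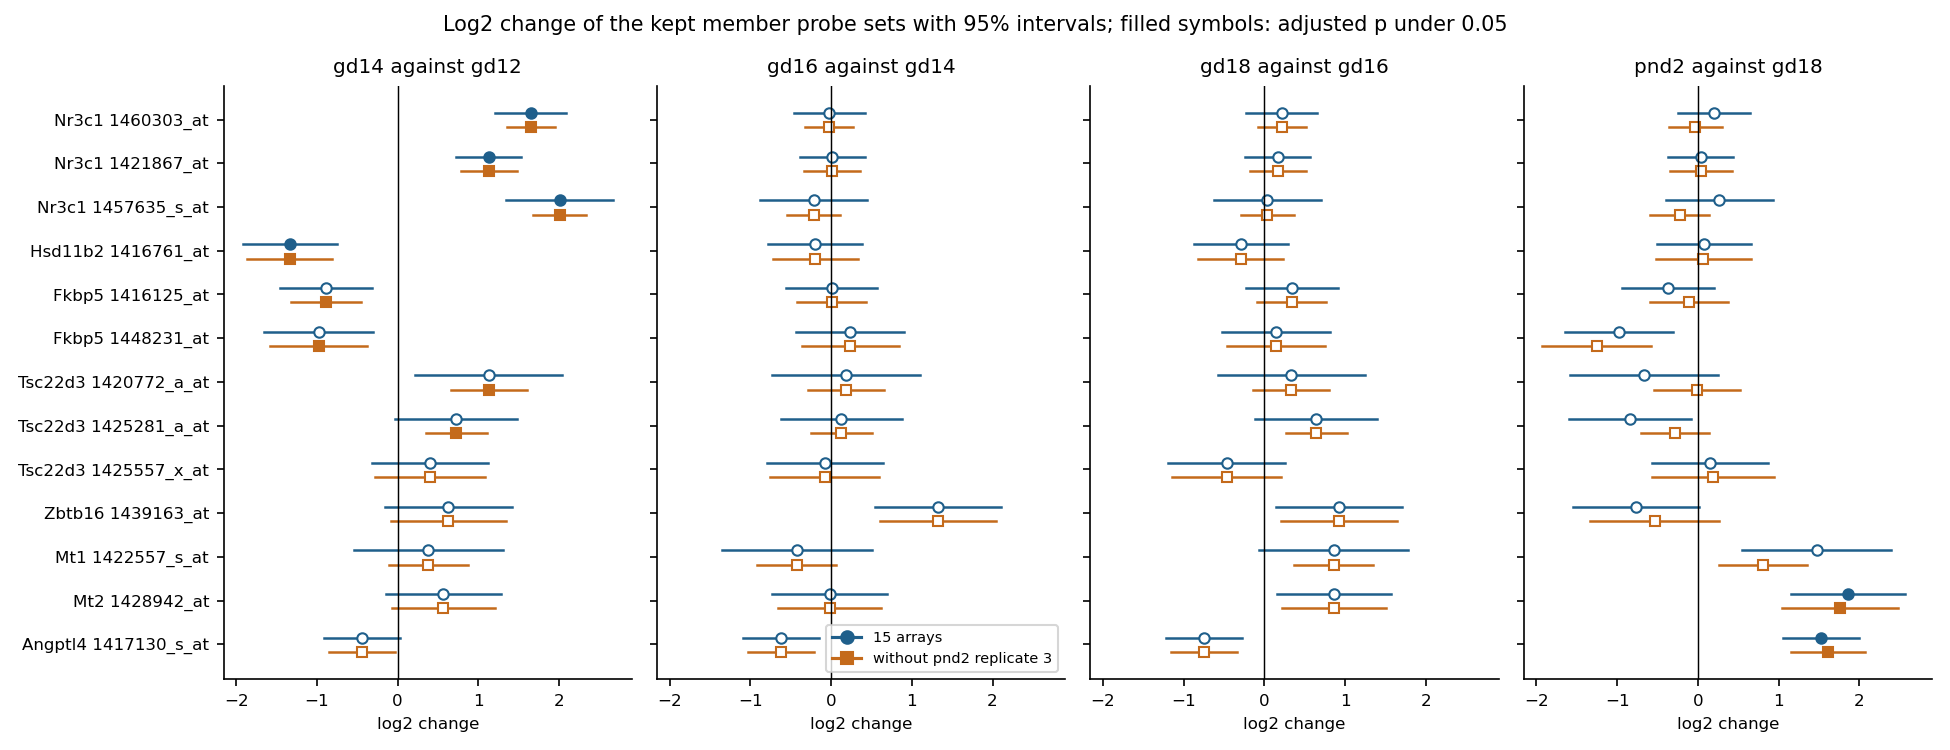
Log2 change of the 13 tested probe sets in the consecutive intervals, with 95% confidence intervals from the limma model, for all 15 arrays and without pnd2 replicate 3; the vertical line marks no change. With 15 arrays Nr3c1 and Hsd11b2 are called at gd14 against gd12, and Mt2 and Angptl4 at pnd2 against gd18. Further intervals lie off the line without a call, such as those of Mt1 and Fkbp5 1448231_at at pnd2 against gd18. The intervals of Tsc22d3 1420772_a_at and 1425281_a_at narrow when the degraded array is left out.

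Read against the whole array, the first and the last intervals were the ones in which members were called. From gd12 to gd14, 3 member probe sets rose and 1 fell, 4 of 13, where 8.72% of all tested probe sets were called, 5.08% higher and 3.63% lower. Without pnd2 replicate 3 these were 8 of 13 against 23.8%, the additional ones being the 2 lower probe sets of Fkbp5 and 2 higher ones of Tsc22d3. The 4 calls came from 2 genes, as all 3 higher ones were of Nr3c1, and the 8 calls from 4 genes. Probe sets of the same gene are not independent. From gd18 to pnd2, 2 of 13 rose, where 0.558% of all probe sets were called, 0.169% higher and 0.389% lower; without that array it was again 2 of 13, against 1.75%, of which 0.554% were higher and 1.19% lower.

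From gd14 to gd16 and from gd16 to gd18 limma called 0 of 13 members, where 0.0616% and 0.142% of all probe sets were called; without pnd2 replicate 3 it was again 0 of 13, against 0.731% and 1.01%. At an unadjusted p under 0.05 there were 2 and 3 members, and 1344 and 1637 probe sets overall. Over the whole window, from gd12 to pnd2, 9 of 13 were called, 6 higher and 3 lower, against 21.1% of all (10.3% higher, 10.8% lower); without pnd2 replicate 3 it was 11 of 13 against 28.1%. The 9 probe sets were of 6 genes and the 11 of 7 genes. By limma's F test across the 5 stages 9 of 13 passed against 20.9% of all, and 12 of 13 against 38.6% without that array.

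Groups that did not overlap were counted as well. From gd12 to gd14, 5 of the 13 lay wholly higher and 3 wholly lower, against 21.5% and 17% of all tested probe sets. From gd14 to gd16 these were 1 and 2 (10.4% and 9.95% of all), from gd16 to gd18 3 and 2 (9.74% and 9.92%), and across birth 3 and 2 (8.32% and 13.8%). The 3 that lay wholly higher across birth were Mt1, Mt2 and Angptl4, and the 2 wholly lower were the dimmer Fkbp5 probe set and Tsc22d3 1425281_a_at. From gd12 to pnd2, 6 lay wholly higher and 2 wholly lower (14% and 18.4% of all).

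Across birth the median log2 change of all tested probe sets was -0.16, which median centring of the arrays moved to 0.09. The share of higher calls among all calls was 30.3% as scaled and 59.2% with median centring, and under either scaling Mt2 (2.11 with median centring) and Angptl4 (1.77) were called higher.

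Cell type markers moved over the same intervals, and in whole organs fewer cells of a type and less RNA per cell cannot be told apart. Beside the gd12 to gd14 changes, the summed signal of 5 germ cell markers was 13190 to 19950 at gd12 and 863 to 1407 at gd14, and that of the 6 testis supporting cell markers was 3908 to 7119 and 775.6 to 807.8. Among the supporting cell markers Amh read 5.28, 17.4 and 32.8 at gd12, below the array medians, so that sum was carried by the other 5. Of the gd12 arrays replicate 13 was lowest in both sums, as it was for Hsd11b2 and Fkbp5. Over the same interval the 5 mesenchyme markers went from 30360–40800 to 85840–95980, the 6 macrophage markers from 1934–4107 to 7555–9045, and the 5 smooth muscle markers from 2197–4570 to 7589–11860. The part of these cells in the member changes was not tested.

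Adrenal cortex, the source of the hormone, was checked with 4 markers on the array. Their summed signal was 773.9 to 1184 at gd12 and 249.6 to 542.5 from gd14 on, with at most 2 of the 4 at or above the array median on any epididymis array. The gd12 excess was that of Mc2r, the receptor for the pituitary hormone ACTH, alone: it read 602 to 995 at gd12 and 124 to 360 later. The steroid-synthesis enzymes Cyp11b1, Cyp11b2 and Cyp21a1, which define the cortex, read 6.90 to 128 at gd12, and of these only Cyp21a1 on gd12 replicate 15 and Cyp11b1 on gd16 replicate 9 reached an array median. Beside the gd18 to pnd2 changes, the duct epithelium sum went from 20880–23960 to 33830–36490 and smooth muscle from 37170–38690 to 41440–50700, while endothelium went from 4149–5258 to 1511–3347 (2931 and 3347 without pnd2 replicate 3) and red cell markers from 722.9–1636 to 205.8–285.1. Of the endothelium markers only Kdr fell without overlap, from 2997–3984 to 675–2342. Pecam1, Cdh5, Tek and Emcn overlapped between gd18 and pnd2. Skeletal muscle markers were high on pnd2 replicate 2 alone; without that array Mt2 and Angptl4 were called higher at pnd2 (2.03 and 1.37; limma adjusted p = 0.02315 and 0.02042). The 3 adipocyte markers, a cell type rich in Angptl4, summed to 535.5 to 1127 at gd18 and 275.8 to 745.4 at pnd2 (275.8 and 295.3 without the degraded array), with 1 of the 3 above the array median, against 27580 in the newborn pool.

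For every gene list, the counts stand beside the shares of all tested probe sets called in the 4 consecutive intervals. In order of age these shares were 8.72%, 0.0616%, 0.142% and 0.558% with 15 arrays. Without pnd2 replicate 3 they were 23.8%, 0.731%, 1.01% and 1.75%. Of 12 genes listed as chaperones and co-chaperones, 9 were on the array and all 9 were tested. Hsp90aa1, the inducible Hsp90, was lower at gd14 than gd12 (17850, 22851 and 17000 against 12515, 12529 and 12962; log2 change -0.59 ± 0.16, limma adjusted p = 0.03271, and 0.00159 without pnd2 replicate 3), and no other chaperone was called in a consecutive interval with 15 arrays. That call held in 10 of 15 fits leaving out 1 array, and without pnd2 replicate 3, 5 of 9 were lower at gd14, the others being Fkbp4, Stip1, Bag1 and Dnajb1. Across birth Cdc37, a co-chaperone of Hsp90, had the widest change of this list at -1.21 ± 0.78, which was 0.25 ± 0.13 without the degraded array (169 on that array, 3525 and 4048 on the other pnd2 arrays). Of the 8 tested receptor coregulators 0 were called by limma in a consecutive interval, with or without pnd2 replicate 3; the numbers at an unadjusted p under 0.05 in the 4 intervals, in order of age, were 1, 0, 0 and 2 with 15 arrays and 2, 3, 1 and 0 without that array. The corepressor Nrip1 had the widest change across birth in that list, 0.72 ± 0.27 (limma adjusted p = 0.1803), and 0.48 without the degraded array.

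Other genes known to respond to glucocorticoids gave a mixed picture. All 28 listed were on the array and 25 were tested. From gd12 to gd14, 4 rose and 0 fell with 15 arrays: Glul, glutamine synthetase (log2 change 1.52 ± 0.12), Klf9, a transcription factor (1.56 ± 0.35), Fbxo32, a ubiquitin ligase of muscle atrophy (at least 7.07-fold, since every gd12 array was below its median; limma adjusted p = 0.001536), and Anxa1, annexin A1, an anti-inflammatory protein (1.30). The list's median change was 0.36, against 0.07 over all tested probe sets. The Klf9 call was lost without gd12 replicate 14 (limma adjusted p = 0.05863) and the other 3 held whichever array was left out. The fit to the 14 arrays other than the degraded one called 8 of the list higher and 3 lower. The further risers were Sgk1 (0.52), the cell cycle inhibitor Cdkn1a (1.36), Txnip (0.90) and Crispld2 (0.90), and the 3 lower genes were the phosphatase Dusp1 (-0.59), the transcription factor Cebpd (-1.06) and Ddit4, an inhibitor of mTORC1 (-1.10). From gd14 to gd16, 0 were called with 15 arrays and 5 had an unadjusted p under 0.05; without that array Lcn2 was called higher and Sgk1 and Cdkn1a lower. From gd16 to gd18 2 rose with 15 arrays, Anxa1 (1.02) and Lcn2, a siderophore-binding protein of epithelia (2.87), and these calls held in 4 and 8 of the 15 fits that left out 1 array; without pnd2 replicate 3, 5 rose, the others being Nfkbia (0.52), Errfi1 (0.53) and Glul (0.57).

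Across birth 1 of the 25 rose and 0 fell with 15 arrays, 9 had an unadjusted p under 0.05, and the median change was -0.22 against -0.16 over all. The riser was Anxa1, which read 619, 516 and 440 at gd12, 1403, 1244 and 1261 at gd14, 1611, 2035 and 1600 at gd16, 3421, 3685 and 3520 at gd18, and 6671, 7487 and 9384 at pnd2. Its change from gd18 to pnd2 was 1.13 ± 0.18 (limma adjusted p = 0.02141; 0.99 and 0.006167 without pnd2 replicate 3), and the arrays of each stage lay above those of the stage before throughout. As with Mt2, this call was lost on leaving out any gd18 array (limma adjusted p up to 0.1222). Without pnd2 replicate 3 Txnip, an inhibitor of thioredoxin, was called as well (0.99 ± 0.21; 4315 to 4660 at gd18, 8844 and 8856 on the other pnd2 arrays, and 451 on the degraded one). Per1, a clock gene, had the widest change of the list at -1.65 ± 0.76, and -0.31 without the degraded array, which read 16.3.

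**Figure D4:**
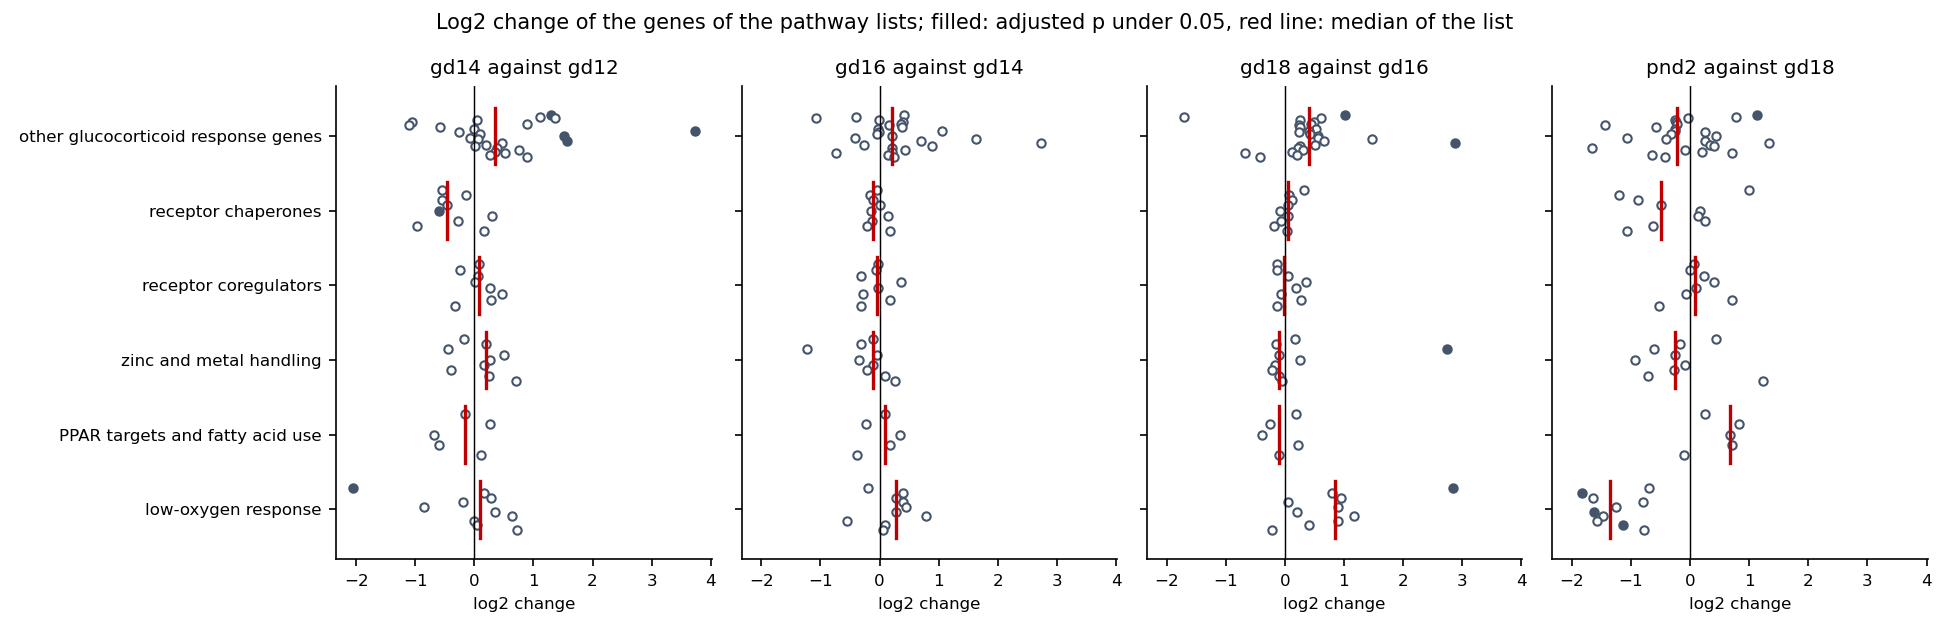
Log2 change of every tested gene in 6 of the gene lists (points, brightest probe set of each gene) in the 4 consecutive intervals, with a red line at each list's median, filled points for calls at a limma adjusted p under 0.05 and a black line at no change. Across birth the low-oxygen response genes sit lowest, all 10 below 0 with a median of -1.36, while filled points of the other glucocorticoid response genes lie to the right in every interval but gd16 against gd14.

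Metal, fatty acid and oxygen genes were set beside Mt2 and Angptl4, since these inputs also induce them. Whether any of these inputs acted on Mt2 or Angptl4 here was not tested. Of the 9 tested genes of zinc and metal handling, 0 were called by limma across birth with 15 arrays and 3 had an unadjusted p under 0.05. Slc39a8, a zinc and manganese importer, was nearest, at 913, 908 and 821 at gd18 and 1949, 1339 and 3519 at pnd2 (log2 change 1.24 ± 0.28, limma adjusted p = 0.06292), and without pnd2 replicate 3 it was called (0.87 ± 0.20, limma adjusted p = 0.03921), the only one in that interval. From gd12 to gd14, 0 were called with 15 arrays, and without that array Slc39a8 was higher (0.71) and Slc39a10, a zinc importer, lower (-0.39). Mt3, the third metallothionein measured, rose from gd16 to gd18 (45.9, 9.62 and 8.81 against 298, 156 and 200). Its gd16 arrays were all below their medians, so the rise is given as at least 1.58-fold (limma adjusted p = 0.03727, and 0.01286 without pnd2 replicate 3; called in 6 of 15 fits leaving out 1 array), and it was not called across birth (-0.61 ± 0.48).

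Of the 5 tested PPAR targets 0 were called by limma in any of the 5 comparisons with 15 arrays; across birth 3 had an unadjusted p under 0.05. When pnd2 replicate 3 was left out, 2 were lower at gd14 than gd12, Cpt1a, which carries fatty acids into mitochondria (-0.69, limma adjusted p = 0.03661), and the lipase Lpl, which Angptl4 inhibits (-0.60, limma adjusted p = 0.00646), and 0 were called by limma in the other 4 comparisons, where 0 to 2 had an unadjusted p under 0.05. The fatty acid importer Cd36 had the widest change across birth, from 156, 110 and 108 at gd18 to 206, 260 and 228 at pnd2 (0.82 ± 0.27, limma adjusted p = 0.1515; 0.83 and 0.1766 without pnd2 replicate 3), where its newborn pool signal was 6380.

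All 10 low-oxygen response genes were tested, and across birth 3 fell and 0 rose with 15 arrays, with 9 at an unadjusted p under 0.05; without pnd2 replicate 3, 5 fell, the others being Egln3 and Bnip3. Ankrd37 fell by 1.82 on the log2 scale, from 475, 447 and 750 to 145, 117 and 168 (limma adjusted p = 0.01659), the glucose transporter Slc2a1 fell by 1.14 (limma adjusted p = 0.03667) and the glycolytic enzyme Ldha fell by 1.62 (limma adjusted p = 0.02955). With 1 array left out at a time these calls held in 13, 6 and 10 of 15 fits, being lost without gd18 replicate 4 or 6 in each case (limma adjusted p up to 0.1551). The list's median was -1.36 against -0.16 over all tested probe sets, and -1.03 without pnd2 replicate 3. Across birth Angptl4 rose while the 3 called members of this list fell, and no link between them was tested. From gd16 to gd18 Adm, adrenomedullin, rose from 457, 336 and 315 to 2788, 2008 and 3538 (2.84 ± 0.33, limma adjusted p = 0.002157; 0.0002245 without pnd2 replicate 3), while Angptl4 read lower at gd18 than at gd16 on all arrays. Adm had also been lower at gd14 than at gd12 (-2.05, limma adjusted p = 0.0013; 0.0001706 without that array). Bnip3 and Ndrg1 were called higher at gd18 than gd16 as well when pnd2 replicate 3 was left out, and at gd14 against gd12 Egln3 lower and Ndrg1 higher.

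Finally, for each tested member the genes of most similar profile were listed, as a description by Pearson's r over the 14 arrays without pnd2 replicate 3, which share stages and scaling. Closest to Nr3c1 were Cldn1, a tight junction claudin (Pearson r = 0.986 over 14 arrays and 0.959 over 15), and the matrix genes Col12a1 (0.985 and 0.944) and Dcn (0.984 and 0.897). Closest to Hsd11b2 were Pknox2 (0.976 and 0.968), Mboat2 (0.973 and 0.970) and Itgb5 (0.970 and 0.672). For Fkbp5 the nearest was Mybl2, a cell cycle transcription factor (0.934 and 0.911), for Tsc22d3 the collagen Col4a6 (0.982 and 0.641), and for Zbtb16 Adamtsl5 (0.958 and 0.941).

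Mt1 and Mt2 had 1 gene in common among their nearest 3, the secreted matrix protein Ccn3 (r = 0.932 with Mt1 and 0.925 with Mt2 over 14 arrays). The nearest to Mt1 was Elovl7, a fatty acid elongase (0.940 and 0.936), and to Mt2 Erap1, an aminopeptidase of antigen processing (0.947 and 0.913). The next for Mt2, Psmb10, an immunoproteasome subunit, was at 0.938 over 14 arrays and 0.070 over 15, so that likeness did not extend to the degraded array. Angptl4 had the loosest neighbours, Kars (0.894 and 0.192), Sdhb, a respiratory chain subunit (0.880 and 0.878), and Slc66a1 (0.871 and 0.590).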

How the data were processed

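RNA of whole epididymides was amplified in 2 rounds, labelled with biotin and hybridised to Affymetrix arrays, per the labels' protocols. The authors' deposited table holds 1 signal per probe set and array, a linear intensity from GCOS (the Affymetrix scanner software) per the submitters' processing notes. Which algorithm and software release made the signal is stated in none of the labels or headers. All arrays had the same trimmed mean, 500, which a scaling by 1 factor per array leaves, so a shift in many bright transcripts moves all others on that array together. For arrays, the number of samples limits the precision.

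Of 45101 probe sets 64 are controls; 34945 of the others have 1 gene symbol in the platform annotation, 932 several, and 9160 are not listed. Values were taken as log2(signal + 16), where the constant lowers the folds of dim probe sets. Probe sets at or above their array's median on at least 3 of 15 epididymis arrays were kept. A model with 1 mean per stage was fitted to all 15 arrays (limma 3.58.1 in R 4.3.3, empirical Bayes with an intensity trend) for the 4 consecutive intervals, pnd2 against gd12 and an F test over the 5 stages. Adjustment was by Benjamini-Hochberg within each comparison over all kept probe sets. The script was tested on simulated data. Each choice was varied in turn: the scaling (quantile or median), the added constant (1 or 64), the filter, the probe sets per gene, the variance trend, array weights and the arrays included. No labels beyond the design text tie samples to animals, so p-values rest on the spread between samples within a stage. That spread was pooled over the 5 stages for each probe set and moderated across probe sets.

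Promoter sequences are from RefSeq (GRCm38.p6). All 24 member probe sets are reported; where every array of 1 stage was below its median and the other stage was not, a called fold is a lower bound computed with the dim arrays at their medians. Listed genes are named if called in a consecutive interval with 15 arrays or if their change across birth was the widest of their list; those called only without pnd2 replicate 3 are named as well; and 3 genes of most similar profile were taken per member. Listed genes use their brightest kept probe set. Members and lists were chosen with earlier results of these data known.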

Additional observations from a re-analysis of the deposited data

How the results depend on the processing

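Single member probe sets had 1979 values under the alternatives over all comparisons: 1902 stayed on the same side of the threshold, 58 newly passed it and 19 lost it. Of the 1902, 38 had the other sign, in 13 pairs of probe set and comparison, all at sizes up to 0.32 and called neither as reported nor under the alternative; 0 called values changed sign. No paired analysis was possible because the replicate numbers in the labels run on through the series and no number is shared between stages. The counts of called probe sets over the whole array, and of members among the 13, moved by over 1.5 times as follows. The count of all calls for gd16 against gd14, 16 as reported, was 28 after quantile normalization, 27 without the intensity trend, 471 with array quality weights (1 member, Zbtb16, against 0), 35 without 3 doubted arrays (pnd2 replicate 3, gd14 replicate 10 and gd16 replicate 9) and 383 in a fit to the 6 arrays compared. For gd18 against gd16, 37 as reported, it was 56 after quantile normalization, 18 with a constant of 1, 438 with weights and 281 in the 6-array fit. For pnd2 against gd18, 145 as reported, it was 71 with median centring, 236 with a constant of 64, 65 with no filter, 71 with 1 probe set per gene, 864 with weights, 223 without the 3 doubted arrays and 0 in the 6-array fit (0 members against 2), which had 2134 at an unadjusted p under 0.05. For gd14 against gd12, 2265 as reported, it was 5895 with weights, 4470 without the 3 doubted arrays and 5054 in the 6-array fit, each with 8 members called against 4. For pnd2 against gd12, 5476 as reported, it was 3358 with 1 probe set per gene, which tests fewer, and 1456 in the 6-array fit. For any change, 5440 as reported, it was 3232 with 1 probe set per gene and 10008 with weights. With each array left out in turn, the count over the whole array ran from 1313 to 6190 for gd14 against gd12 (members 4 to 8), 6 to 190 for gd16 against gd14 (members 0), 7 to 262 for gd18 against gd16 (members 0), 3 to 820 for pnd2 against gd18 (members 0 to 3), 3825 to 7293 for pnd2 against gd12 (members 8 to 11) and 3753 to 10040 for any change (members 8 to 12). Apart from the smaller number of probe sets or arrays in some fits, the cause was not tested. Of the calls around birth, those of Mt2 and Angptl4 rest on the spread pooled over 15 arrays and on all 3 gd18 arrays. Signals wholly below the array medians, as for Nr3c2, carry no order, and changes against such a stage have only a bound.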
